A study of Homo sapiens with 6 samples.

Results

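The LINC and SNHG noncoding RNAs were examined in Rh30 cells, an established line of fusion-positive rhabdomyosarcoma (FP-RMS), after exposure to YK-4-279. Members were the rows of the normalized count table whose symbol was LINC or SNHG followed by digits only and whose mean over the 6 libraries was at least 10. Of 1479 rows with such symbols among 35268 named genes, 196 were members, 17 of them SNHG and 179 LINC. Of the others, 736 held no read in any library and 547 held reads but had a mean under 10. The mean over all libraries therefore chose the members, and their levels are given as a description. It used both groups together, and 14 members had a mean under 10 in 1 group, 11 of these in the DMSO group and 3 in the YK-4-279 group. Just inside the limit stood LINC00240 and LINC02613, with means of 10.1 and 10.2 normalized counts. Just outside it stood LINC00216, with a mean of 9.81, and LINC02606, with a mean that rounds to 10.0.

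The treated group was 3 libraries (YK) from cells given 1 µM YK-4-279 for 24 h, and the control group was 3 libraries from cells given the vehicle DMSO for the same time. YK-4-279 is a small molecule known as an inhibitor of ETS family transcription factors, and the series compared its transcriptomic effects with those of vehicle. All 6 libraries came from the same cell line, which carries the PAX3-FOXO1 fusion in all groups, and other FP-RMS lines were not analysed here. Libraries were made from polyadenylated RNA, so that intron-derived small RNAs and transcripts without a poly(A) tail were not targeted. Any counts of such transcripts may not reflect their level. The labels do not say whether the 3 libraries of a group were separate cultures, and p-values measure only the spread between these libraries.

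Between 16724650 and 24677433 reads lay on named genes per library. The muscle lineage genes MYOD1 and MYOG had means of 36993 and 14926 normalized counts, whereas KRT5 was at 0 and PTPRC, CD3E and CDH1 had means under 1. MYF5, another myogenic factor, had a mean of 0.286. Of the other markers of blood, endothelium and epithelium named here, CD14, PECAM1 and EPCAM had means of 13.3, 22.1 and 64.6. DMSO replicate 1 was less like the rest than any other library was (mean correlation across genes 0.989, against 0.992 or more). In bulk samples, fewer cells with a transcript and less of it per cell cannot be told apart.

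SNHG genes carry small nucleolar RNAs (snoRNAs) or small Cajal body RNAs in their introns. Splicing releases the introns, from which the small RNAs are trimmed to guide chemical modification or processing of ribosomal and spliceosomal RNA, while the spliced exons leave a transcript with little coding potential that is often removed by nonsense-mediated decay. Many snoRNA host genes belong to the 5′ terminal oligopyrimidine (5′TOP) class, whose transcripts start with a C and a run of pyrimidines. LINC is the label for long intergenic noncoding RNAs, a class defined by position between coding genes and not by function, and many of its members are low in level and restricted to few tissues.

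Across the members, 3 of 196 (1.53%) changed at an adjusted p under 0.05 in limma, beside 3.41% of all 13930 genes tested. LINC00106 and LINC00652 rose and SNHG3 fell. Higher calls made up 1.26% and lower calls 2.15% of all genes. At an unadjusted p under 0.05 there were 33 members (16.8%), beside 18.7% of all genes. Called members numbered 2 in edgeR, with 3.34% of all genes called, and 3 in DESeq2, with 4.47% of all genes called. The plot of change against level shows the members lying inside the range of all genes at each level, with the 3 called members ringed. The lowest member, at a mean between 10 and 30, was at -1.52 on the log2 scale and was not called. The minimum over all genes in that band was -1.54.

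**Figure D1:**
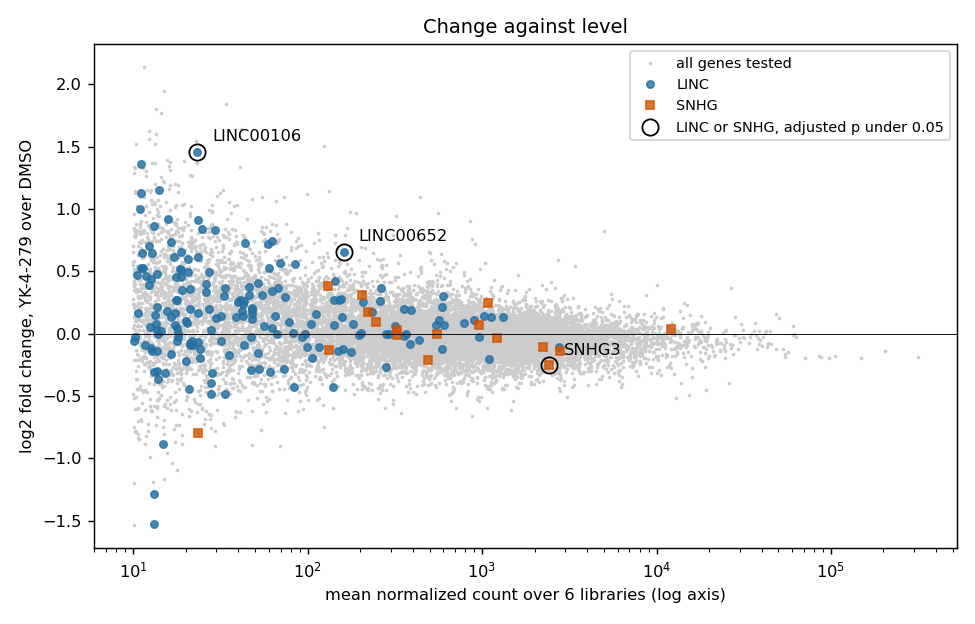
Log2 fold change of YK-4-279 over DMSO (vertical axis) against the mean normalized count over 6 libraries (horizontal log axis) for the 13930 genes tested (grey), the 179 LINC members (blue circles) and the 17 SNHG members (orange squares). Black rings mark the 3 members with an adjusted p under 0.05 in limma, LINC00106 and LINC00652 above 0 and SNHG3 below it.

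SNHG3 is the host of SNORA73A and SNORA73B, snoRNAs that act in ribosomal RNA processing. It gave 2833, 2577 and 2499 normalized counts in the DMSO libraries and 2222, 2125 and 2274 in the YK libraries. Every YK library lay below every DMSO library. The log2 fold change was -0.25 (SE 0.06, limma adjusted p = 0.0487), which is 0.837 of the DMSO mean. The call sat at the threshold, with an adjusted p of 0.0582 under TMM scaling, 0.0588 in edgeR, 0.0278 in DESeq2 and 0.114 after quantile normalization, 0.0733 without DMSO replicate 3, and between 0.156 and 0.233 in limma when any of the YK libraries was left out. SNHG3 lies at chr1:28505980-28510892 on the plus strand of hg38 and shares exon sequence on the same strand with the coding gene RCC1, a chromatin-bound exchange factor for the GTPase Ran, so reads in the shared part are uncertain. RCC1 gave 2583 ± 194 normalized counts in DMSO and 2549 ± 108 in YK (SD, n = 3 each), and its log2 fold change was -0.02 (limma adjusted p = 0.926).

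LINC00652 gave 136, 116 and 123 normalized counts in DMSO and 193, 175 and 226 in YK. No DMSO library reached the lowest YK library. The mean rose 1.58-fold, a log2 fold change of 0.65 (SE 0.13, limma adjusted p = 0.0164). The gene lies at chr20:18786065-18794579 on the minus strand, with exons on the opposite strand from those of LCDR. Its nearest coding gene, SCP2D1, lay 19204 bases away and was at 0 in all 6 libraries.

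LINC00106 gave 8.83, 10.99 and 16.7 normalized counts in DMSO and 39.4, 27.2 and 37.0 in YK. The groups did not overlap, and the lowest library held 7 reads. The mean rose 2.84-fold, with a log2 fold change of 1.46 (SE 0.31, limma adjusted p = 0.0226), the largest rise of any member. LINC00106 lies at chrX:1396427-1399402 on the plus strand, in the pseudoautosomal region that X and Y share, so reads of the 2 copies cannot be told apart. ASMTL, its nearest coding gene at 3737 bases, had a log2 fold change of 0.02 (limma adjusted p = 0.947). Both LINC rises were called in edgeR and DESeq2, and in limma with any DMSO library left out, whereas with any YK library left out their adjusted p lay between 0.0733 and 0.166. With eBayes without trend, their adjusted p was 0.0946 and 0.0983 in limma. No member was called without YK replicate 1, 2 or 3, where calls over all genes were 0.136%, 0.165% and 0.33%.

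**Figure D2:**
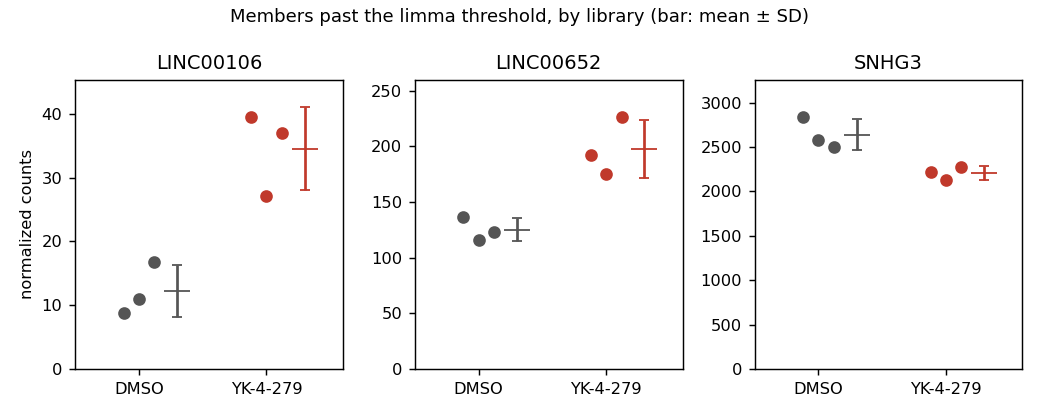
Normalized counts (vertical axes, starting at 0) of the 3 called members in each DMSO library (grey) and YK-4-279 library (red), with the mean and SD of each group of 3 beside the points. In all 3 panels the groups do not overlap, and LINC00106 spans 8.83 to 39.4 normalized counts.

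Promoter windows reach from 250 bases before to 50 after a start in RefSeq (GRCh38.p14). They were held for 139 members, and LINC00106 was not among them. Since YK-4-279 is known for acting on ETS factors, windows were searched on both strands for CCGGAAG, the core of many ETS binding sites. The 4 windows printed here are those of the called members SNHG3 (its only window) and LINC00652 (the window at the annotated start, 1 of its 2), and of SNHG20 and LINC01134, chosen after their values were seen because their groups do not overlap and their windows hold the motif. LINC01134 is 1 of 6 LINC members with the motif whose groups do not overlap, all of them higher. These were 24.0% of the LINC members with the motif, beside 21.9% without overlap among all genes with it. Capitals mark the motif.
SNHG3 (chr1:28505693-28505992, plus strand): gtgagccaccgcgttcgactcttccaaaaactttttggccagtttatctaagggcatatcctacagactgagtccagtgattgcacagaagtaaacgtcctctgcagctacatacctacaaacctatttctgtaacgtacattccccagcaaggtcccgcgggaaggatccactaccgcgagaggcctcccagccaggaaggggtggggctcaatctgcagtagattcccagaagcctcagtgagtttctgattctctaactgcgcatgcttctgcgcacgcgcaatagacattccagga
LINC00652 (chr20:18794535-18794834, minus strand): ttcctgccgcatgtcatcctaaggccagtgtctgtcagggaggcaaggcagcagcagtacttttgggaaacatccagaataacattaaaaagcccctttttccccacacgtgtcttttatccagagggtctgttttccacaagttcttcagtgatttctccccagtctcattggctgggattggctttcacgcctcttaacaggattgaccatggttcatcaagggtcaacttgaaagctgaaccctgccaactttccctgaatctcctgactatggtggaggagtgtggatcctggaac
SNHG20 (chr17:77088393-77088692, plus strand): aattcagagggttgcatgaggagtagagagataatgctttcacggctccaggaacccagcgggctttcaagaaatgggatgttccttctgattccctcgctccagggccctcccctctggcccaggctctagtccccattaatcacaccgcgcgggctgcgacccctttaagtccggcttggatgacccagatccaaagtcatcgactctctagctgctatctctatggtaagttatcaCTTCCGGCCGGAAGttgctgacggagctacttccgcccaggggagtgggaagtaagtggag
LINC01134 (chr1:3900154-3900453, plus strand): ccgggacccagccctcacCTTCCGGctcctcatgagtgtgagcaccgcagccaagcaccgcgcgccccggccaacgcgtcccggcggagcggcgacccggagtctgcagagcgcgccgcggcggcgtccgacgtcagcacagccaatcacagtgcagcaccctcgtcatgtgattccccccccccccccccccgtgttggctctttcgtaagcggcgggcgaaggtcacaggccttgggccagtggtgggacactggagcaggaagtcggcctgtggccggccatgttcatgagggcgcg
No capitals appear in the windows of the called members. SNHG20 holds the motif on both strands, back to back, across its start, and LINC01134 holds it near the far end of the window.

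Over all members, 2 of 16 SNHG windows (12.5%) and 29 of 151 LINC windows (19.2%) held the ETS letters, beside 10.3% of all 35116 windows and 16.3% of the windows of genes tested. A gene can have several windows, some of them overlapping, and in all window shares given here each was counted. By gene, 25 LINC members had the letters and 98 had none, beside 2395 and 8551 of all genes tested. Of the LINC members, 25 had the letters in a window, of which 18 were fitted higher and 7 lower (median 0.14 on the log2 scale). The 98 LINC members whose windows lacked the letters had 59 fitted higher and a median of 0.08. Over all genes tested the medians were -0.02 with the letters and -0.01 without. None of the 25 was called in limma, and 6 of them had an unadjusted p under 0.05, beside 1 called and 13 under 0.05 of the 98. Over all genes, 1.88% were called with the letters and 3.82% without, 13.8% and 20.3% had an unadjusted p under 0.05, and 45.1% and 47.5% were fitted higher. The E-box letters CAGCTG, bound by myogenic factors such as MyoD, were in 26.5% of LINC windows, 12.5% of SNHG windows and 17.5% of windows of genes tested. TATAAA was in 4 of 16 SNHG windows and in 6.51% of windows of genes tested.

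SNHG20, host of SCARNA16, gave 159, 192 and 198 normalized counts in DMSO and 242, 218 and 219 in YK. Its log2 fold change was 0.31 (SE 0.12, limma adjusted p = 0.172). It shares exon sequence on the same strand with the coding gene SEC14L1, so reads there are uncertain. LINC01134 gave 49.2, 36.0 and 46.8 in DMSO and 90.8, 56.5 and 74.0 in YK, with a log2 fold change of 0.72 (SE 0.21, limma adjusted p = 0.0815). Both were chosen because their groups do not overlap, so that separation is no separate result, and neither passed the threshold.

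The SNHG members ranged from SNHG29, with a mean of 12082 normalized counts, to SNHG31, and had a median of 489. The LINC members had a median of 33.5. SNHG29 alone was 47.5% of the summed SNHG level and 24.1% of that of all 196 members. SNHG29, host of SNORD49A, SNORD49B and SNORD65, gave 10736, 12800 and 12241 normalized counts in DMSO and 11983, 12811 and 11920 in YK. The groups overlapped, with DMSO replicate 1 the lowest of all libraries. Its log2 fold change was 0.04 (95% interval -0.10 to 0.19, limma adjusted p = 0.792).

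Start sequences are printed for 7 SNHG genes, namely the 5 with the letters CTTTT near the start, and SNHG3 and SNHG1, which lack these letters. Each runs from 10 bases before to 20 after the RefSeq start, on the transcript's strand, and capitals mark CTTTT.
SNHG29 (chr17:16438977-16439006, plus strand): cCTTTTgtgaggattgggatattccgactc
SNHG16 (chr17:76557754-76557783, plus strand): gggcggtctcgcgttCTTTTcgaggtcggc
SNHG32 (chr6:31834906-31834935, plus strand): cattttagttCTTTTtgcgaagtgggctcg
SNHG5 (chr6:85678714-85678743, minus strand): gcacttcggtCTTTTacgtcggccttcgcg
SNHG19 (chr16:2155339-2155368, minus strand): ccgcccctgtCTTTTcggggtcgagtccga
SNHG3 (chr1:28505933-28505962, plus strand): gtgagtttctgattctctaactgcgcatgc
SNHG1 (chr11:62855866-62855895, minus strand): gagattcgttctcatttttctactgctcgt
These letters, a C and a run of T, were in 5 of 16 SNHG windows (31.2%), beside 3.12% of the same windows of genes tested, and in 4 of 151 LINC windows (2.65%). They began exactly at the annotated start in 3 of 16 SNHG windows (SNHG32, SNHG5 and SNHG19), beside 0.425% of windows of genes tested, whereas in SNHG29 they lay before the start and in SNHG16 after it. Other runs of pyrimidines after a C, such as that at the annotated start of SNHG12, were not counted. The 5 genes with CTTTT, which do not stand for the whole 5′TOP class, did not share a direction. Their log2 fold changes were 0.04 for SNHG29, -0.14 for SNHG16, 0.10 for SNHG32, 0.38 for SNHG5 and -0.13 for SNHG19, and none passed the threshold. Translation was not measured.

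Among the other high SNHG members, SNHG16, host of SNORD1A, SNORD1B and SNORD1C, gave 3181, 2716 and 2902 normalized counts in DMSO and 2739, 2681 and 2545 in YK (log2 fold change -0.14, limma adjusted p = 0.282). SNHG1, host of SNORD22 and SNORD25 to SNORD28 among others, gave 2481, 2219 and 2218 in DMSO and 2079, 2108 and 2222 in YK (-0.11, limma adjusted p = 0.396). SNHG17, host of SNORA71 copies, gave 1096, 1304 and 1272 in DMSO and 1176, 1082 and 1336 in YK (-0.03, limma adjusted p = 0.883). In SNHG16 and SNHG1 a single YK library lay within the DMSO range, and in SNHG17 the groups were interleaved.

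SNHG7, host of SNORA17A and SNORA17B, gave 769, 1197 and 1019 normalized counts in DMSO and 1097, 1166 and 1225 in YK. Only DMSO replicate 1 lay far from the rest, and the log2 fold change was 0.25 (SE 0.12, limma adjusted p = 0.299). It was 0.07 without DMSO replicate 1, and without DMSO replicate 2 it was 0.39 and passed the threshold (limma adjusted p = 0.0399). SNHG12, host of SNORA16A, SNORA44, SNORA61 and SNORD99, gave 479, 502 and 596 in DMSO and 457, 416 and 482 in YK. Its YK libraries were mostly lower, with 1 of them inside the DMSO range, and the log2 fold change was -0.21 (SE 0.10, limma adjusted p = 0.264). SNHG5, host of SNORD50B, gave 144, 108 and 92.7 in DMSO and 147, 149 and 147 in YK. Its YK libraries varied little (SD 1.23), and all lay above the DMSO libraries, with DMSO replicate 1 close beneath them (log2 fold change 0.38, SE 0.16, limma adjusted p = 0.208). SNHG5 shares exon sequence on its strand with PKMP3 and an unnamed coding gene, so reads there are uncertain.

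Over the 17 SNHG members, the fits were higher for 8 and lower for 9, and the median change on the log2 scale was -0.0011, beside -0.007 over all genes. Groups did not overlap in 4 of them, SNHG5 and SNHG20 higher and SNHG3 and SNHG31 lower, or 23.5%, beside 26.0% of all genes tested. In limma 5 of the 17 (29.4%) had an unadjusted p under 0.05, beside 18.7% of all genes, and 1 (5.88%) was called, beside 3.41%. SNHG31, named after its values were seen, had the largest fall of the family at -0.80 (SE 0.27, limma adjusted p = 0.132), from 30.1 ± 1.66 to 17.2 ± 3.96 normalized counts (SD, n = 3 each), with as few as 15 reads in a library. The remaining SNHG members, from SNHG15 at the top to SNHG19 at the bottom of the level range, had log2 fold changes between -0.13 and 0.17 and overlapping groups.

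The summed SNHG level was 24344, 26532 and 25946 normalized counts in DMSO and 24912, 25552 and 25248 in YK, which overlapped. With SNHG29 set aside, a choice made after the values were seen, the other 16 summed to 13608, 13732 and 13705 in DMSO and 12929, 12741 and 13328 in YK, and here all YK libraries were lower. This separation rests on the authors' scaling, since as a share of each library's reads the 16 made up 0.0645%, 0.0662% and 0.0665% in DMSO and 0.0650%, 0.0625% and 0.0670% in YK, which overlapped. The summed LINC level was 24238, 24355 and 24018 in DMSO and 25194, 24857 and 25733 in YK, with all YK libraries higher, also as a share of reads (0.115% to 0.117% in DMSO and 0.122% to 0.129% in YK). These sums weight members by level and were not tested.

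**Figure D3:**
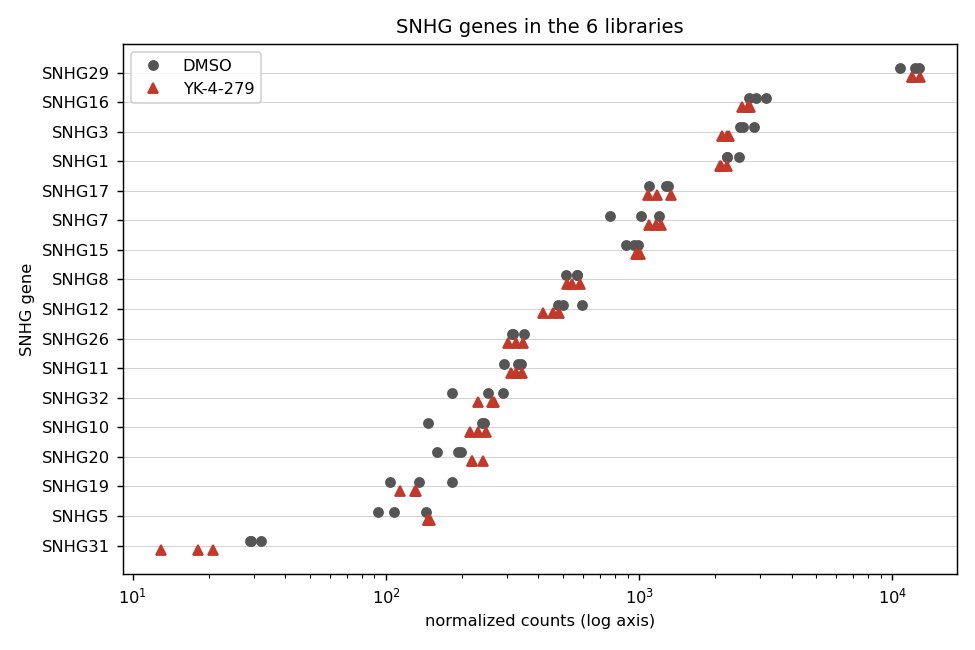
Normalized counts (horizontal log axis) of the 17 SNHG members in the 3 DMSO libraries (grey circles) and the 3 YK-4-279 libraries (red triangles), ordered by mean from SNHG29 at the top to SNHG31 at the bottom. SNHG3 and SNHG31 have all red triangles to the left of the grey circles, and SNHG5 and SNHG20 have them all to the right.

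All 17 SNHG members hold snoRNAs or small Cajal body RNAs in GENCODE annotation, with 42 entries in all, some of them overlapping. Genes that work with them were compared next. Of 30 coding genes that host snoRNAs, mostly ribosomal protein and translation factor genes, none was called in limma, edgeR or DESeq2 and 3 had an unadjusted p under 0.05, and their median log2 fold change was -0.06, with 5 fitted higher and 25 lower. Of all genes 18.7% had an unadjusted p under 0.05, and at means of at least 100 42.5% were fitted higher. EEF2, translation elongation factor and the highest of them, had a log2 fold change of -0.01 (limma adjusted p = 0.955). Of 19 proteins of the snoRNA particle and its assembly, none was called by any of these tools, 4 had an unadjusted p under 0.05, and the median was -0.03, with NOLC1 at 0.01 (limma adjusted p = 0.964).

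The remaining noncoding snoRNA hosts outside the SNHG names, 3 of them tested, were all fitted lower and none was called in limma, edgeR or DESeq2. Of all genes, 48.0% were fitted higher, 3.41% were called in limma and 18.7% had an unadjusted p under 0.05. GAS5, which hosts many box C/D snoRNAs, was at -0.11 (limma adjusted p = 0.364). ZFAS1, named after its values were seen and the only one of the 3 with an unadjusted p under 0.05, went from 634 ± 31.9 to 521 ± 22.8 normalized counts (SD, n = 3 each), at -0.28 (SE 0.08, limma adjusted p = 0.0713).

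The pathways that remove such transcripts followed. Of 17 factors of nonsense-mediated decay, none was called in limma, edgeR or DESeq2 and 1 had an unadjusted p under 0.05, with a median of -0.01 and EIF4A3, an exon junction complex helicase, at -0.07 (limma adjusted p = 0.531). Of 17 genes of the nuclear RNA exosome and its adaptors, EXOSC9, a core subunit, was called and 4 had an unadjusted p under 0.05, with 9 fitted higher and 8 lower, beside 3.41% called and 18.7% under 0.05 of all genes. EXOSC9 went from 1601 ± 127 to 1308 ± 17.6 normalized counts (SD, n = 3 each), at -0.29 (SE 0.07, limma adjusted p = 0.0394). Its adjusted p in limma was 0.0744 without DMSO replicate 3, between 0.168 and 0.224 without any 1 of the YK libraries, 0.0862 after quantile normalization and 0.163 with eBayes without trend. MTREX, the exosome's helicase, was at -0.06 (limma adjusted p = 0.723).

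Among the LINC members the highest was LINC00689, with 2923, 2877 and 2764 normalized counts in DMSO and 2703, 2642 and 2594 in YK. All YK libraries lay below all DMSO libraries, by little (log2 fold change -0.11, SE 0.06, limma adjusted p = 0.325). LINC00641 also separated downwards, with 1255, 1077 and 1171 in DMSO and 999, 1017 and 1013 in YK (-0.21, SE 0.07, limma adjusted p = 0.140). Both lay above 1000 normalized counts on average, and neither passed the threshold.

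LINC01128 gave 1338, 1210 and 1221 normalized counts in DMSO and 1404, 1349 and 1379 in YK, a log2 fold change of 0.13 (limma adjusted p = 0.299). LINC02544 gave 1041, 934 and 948 in DMSO and 1068, 1081 and 1074 in YK (0.14, limma adjusted p = 0.293). In both of them the YK libraries lay above the DMSO libraries, with DMSO replicate 1 the nearest. LINC00205 gave 939, 1178 and 1112 in DMSO and 1195, 1121 and 1213 in YK, and LINC00626 gave 1059, 951 and 899 in DMSO and 885, 982 and 981 in YK. Their groups overlapped, at 0.13 and -0.03 (limma adjusted p = 0.422 and 0.883). LINC00205 was at 0.04 without DMSO replicate 1 and at 0.20 without DMSO replicate 2.

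Level comparisons between genes need a scale per length, here the mean normalized count per kb of the union of all annotated exons, which 185 of the 196 members had. On this scale LINC02544 was the highest of the 185 at 1524, followed by SNHG29 at 1350, LINC00626 at 626, SNHG3 at 592, SNHG1 at 559 and SNHG16 at 484. LINC02544 has 672 exonic bases in 1 annotated transcript, and SNHG29 has 8947 in 62, so the order depends on the annotation.

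Where the mean reached 100, the largest rises after LINC00652 were those of LINC03009, SNHG5 and LINC00174. LINC00174 gave 219, 261 and 210 normalized counts in DMSO and 302, 268 and 318 in YK, without overlap (0.37, SE 0.11, limma adjusted p = 0.0947). It shares exon sequence with pseudogenes on its strand, so reads there are uncertain. LINC03009 gave 87.0, 135 and 146 in DMSO and 158, 136 and 195 in YK, which overlapped (0.42, SE 0.19, limma adjusted p = 0.250). Its log2 fold change was 0.20 without DMSO replicate 1 and 0.29 without YK replicate 3.

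The largest falls in the same range were those of LINC01224, LINC00545, SNHG3 and SNHG12. LINC01224 gave 174, 159 and 150 normalized counts in DMSO and 116, 126 and 116 in YK, without overlap (-0.43, SE 0.12, limma adjusted p = 0.0738). LINC00545 gave 369, 267 and 291 in DMSO and 245, 233 and 290 in YK, with overlap (-0.26, SE 0.13, limma adjusted p = 0.292), and its log2 fold change was -0.13 without DMSO replicate 1. Neither passed the threshold.

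More LINC members were fitted higher than lower in YK-treated cells, 117 against 62, and their median was 0.13 on the log2 scale. All genes in the same bands of level are set beside them here. At means of 10 to 30, the 86 LINC members had a median of 0.17 and 66.3% fitted higher, beside 0.19 and 68.1% for all genes. At means of 30 to 100, the 47 LINC members had a median of 0.14 and 68.1% fitted higher, beside 0.11 and 64.4%. Only at means of at least 100 did the direction differ from that of all genes, with 28 of 46 LINC members (60.9%) fitted higher and a median of 0.07, beside 42.5% and -0.03 for all genes. This band did not match the level, since its LINC members had a median mean of 281 normalized counts, beside 843 for all genes in it. The difference between LINC members and other genes was not tested. After quantile normalization the LINC median was 0.02.

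**Figure D4:**
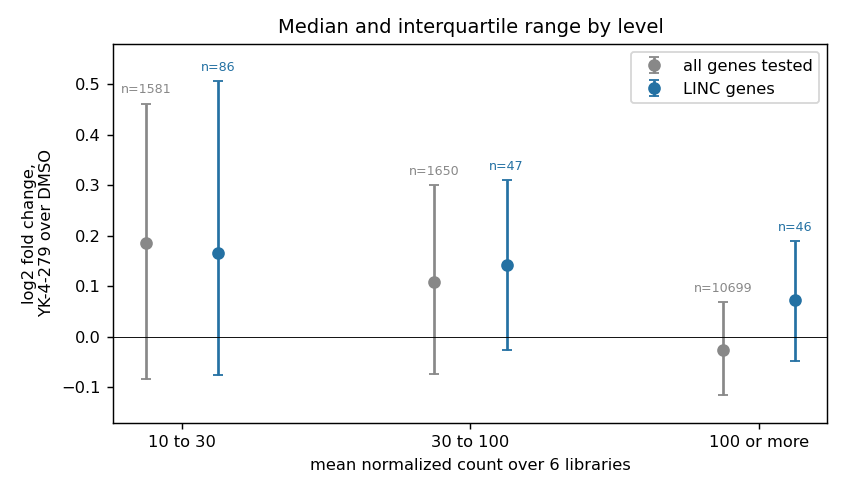
Median log2 fold change of YK-4-279 over DMSO (vertical axis, points) with its interquartile range (bars) for all genes tested (grey) and LINC members (blue) in 3 bands of mean normalized count (horizontal axis), with the number of genes above each bar. The LINC medians of 0.17, 0.14 and 0.07 lie near those of all genes in the lower bands and on the other side of 0 in the highest band. In the highest band the median level was 281 for LINC members and 843 for all genes.

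In all, 35 members had every YK library above every DMSO library and 13 had every YK library below, together 24.5%, beside 10.9% of all genes higher, 15.1% lower and 26.0% in both directions. The SE of a log2 fold change had a median of 0.36 for members at means of 10 to 30, 0.21 at 30 to 100 and 0.11 at 100 or more. Changes well under 1 on the log2 scale in the lowest band were therefore not detectable with these libraries. A member of that band at -1.52 was not called either. In the middle band none of the 47 members was called in limma, beside 1.82% of all genes in that band, and 5 (10.6%) had an unadjusted p under 0.05, beside 14.1%. LINC00240 and LINC02613, at the limit of membership, illustrate the wide spread of low members, with 95% intervals of -0.92 to 0.80 and -0.94 to 0.89.

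DMSO replicate 1 bore on several members. It was the lowest of the 6 libraries in 63 members (32.1%, beside 28.8% of all genes tested) and the highest in 29 (14.8%, beside 33.7%), and it was the lowest in 9 of 17 SNHG members. Without it 14 members were called in limma, 12 higher and 2 lower, beside 13.1% of all genes. These were the 3 members already called and SNHG5, SNHG12, LINC00174, LINC00665, LINC00888, LINC01011, LINC01091, LINC01128, LINC01134, LINC02104 and LINC02544. SNHG5, for example, then had a log2 fold change of 0.56 (limma adjusted p = 0.00501), and SNHG12 one of -0.28 (limma adjusted p = 0.0140). With DMSO replicate 2 left out 6 members were called, beside 4.85% of all genes, and with DMSO replicate 3 left out 3 were, beside 1.74%.

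Some LINC genes start back to back with a coding gene and may share its promoter. Of 9 LINC members whose start lay within 1000 bases of that of a coding gene on the other strand, 8 were fitted higher (median 0.27 on the log2 scale), and none was called in limma (1 had an unadjusted p under 0.05). Over all genes tested, 48.0% were fitted higher, 3.41% were called and 18.7% had an unadjusted p under 0.05. The median level of the 9 was 42.9 normalized counts, and at means of 30 to 100 genes of any kind were fitted higher in 64.4%, with a median of 0.11. LINC00205 was among the 9 at a far higher level, and a difference of the 9 from other genes was not tested. LINC01134, a member of this group, lies 54 bases from C1orf174, itself at -0.03 on the log2 scale (limma adjusted p = 0.881).

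Exons of 22 members overlap exons of another gene on the same strand, 11 of them those of a coding gene, and exons of 62 members overlap a gene on the opposite strand, among 185 members matched to GENCODE. Reads in same-strand overlaps are uncertain. For opposite-strand overlaps, the sources used here do not say whether the counting used strand.

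The nearest coding gene was found for each matched member, and both genes were tested in 151 pairs. The log2 fold changes of member and neighbour had the same sign in 83 of the 151, with Pearson's r of 0.02 and Spearman's rho of 0.09 across pairs, which share libraries and in some cases a neighbour. Of 142 distinct neighbours 6 were called in limma (4.23%, beside 3.41% of all genes). They are named here after their values were seen. CEBPB, a C/EBP factor 100041 bases from LINC01270, POU3F3, a POU factor 439092 bases from LINC01831, and JUN, an AP-1 subunit 98820 bases from LINC02777, rose. OGFRL1 and SPIN4, which overlap LINC00472 and LINC01278, and NEURL1B, 82061 bases from LINC01944, fell.

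None of the 6 noncoding RNAs was called itself. JUN went from 8711 ± 665 to 11412 ± 255 normalized counts (SD, n = 3 each), at 0.39 (SE 0.06, limma adjusted p = 0.00687), and LINC02777 gave 20.2, 27.0 and 20.04 in DMSO and 34.3, 28.3 and 33.0 in YK (0.50, SE 0.25, limma adjusted p = 0.301). Both separated upwards. SPIN4 went from 1589 ± 84.9 to 1195 ± 25.4, at -0.41 (SE 0.07, limma adjusted p = 0.00724), while LINC01278, whose span overlaps SPIN4, gave 572, 518 and 547 in DMSO and 556, 578 and 638 in YK (0.11, SE 0.08, limma adjusted p = 0.493). OGFRL1 went from 714 ± 59.9 to 562 ± 9.95, at -0.34 (SE 0.08, limma adjusted p = 0.0366), and LINC00472, which overlaps it on the opposite strand, was at -0.01 (SE 0.16, limma adjusted p = 0.976).

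**Figure D5:**
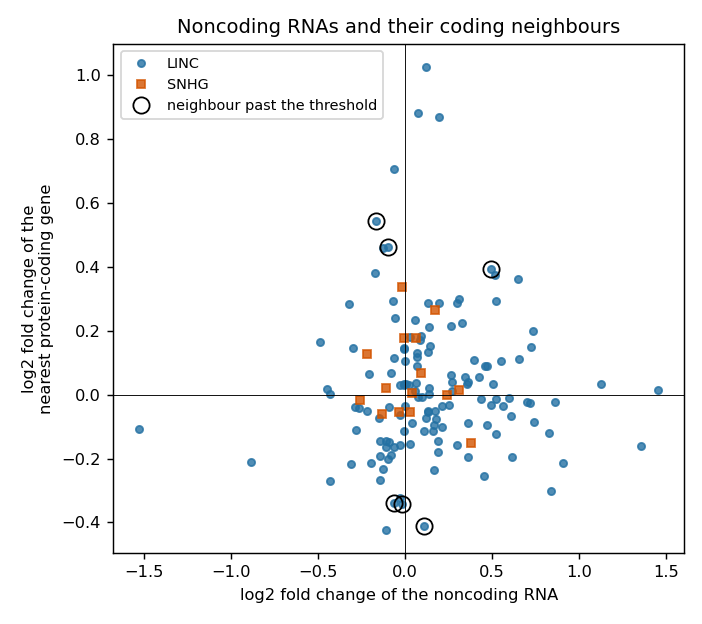
Log2 fold change of the nearest coding gene (vertical axis) against that of the noncoding RNA (horizontal axis) in the 151 pairs where both were tested, LINC in blue and SNHG in orange. Black rings mark pairs whose neighbour has an adjusted p under 0.05 in limma, and the points show no slope (r = 0.02).

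Hairpins of microRNAs lie within 4 members, namely MIR30A and MIR30C2 in LINC00472, MIR9-2 in LINC00461, MIR6516 in SNHG20 and MIR5087 in LINC01138. The mature 5p strands of the best known of them are printed from RefSeq (GRCh38.p14), with the seed, bases 2 to 8, in capitals.
hsa-miR-30a-5p: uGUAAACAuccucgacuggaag
hsa-miR-30c-5p: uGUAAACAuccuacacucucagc
hsa-miR-9-5p: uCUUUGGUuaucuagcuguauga
The miR-30 pair shares its seed, and miR-9 has another. The microRNAs were not measured, and only the host transcripts can be compared. LINC00472 gave 260, 166 and 176 normalized counts in DMSO and 186, 184 and 216 in YK, with DMSO replicate 1 the highest. LINC00461 gave 183, 234 and 242 in DMSO and 260, 241 and 238 in YK (0.18, SE 0.12, limma adjusted p = 0.459). LINC01138 was at -0.16 (SE 0.21, limma adjusted p = 0.729), and the groups overlapped in all 3 of these LINC genes.

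For comparison, a list of 18 tested long noncoding RNAs that go by names of their own held 4 called in limma, 3 in edgeR and 4 in DESeq2, beside 3.41%, 3.34% and 4.47% of all genes. KCNQ1OT1, an imprinted RNA antisense to KCNQ1 (reads of both cannot be told apart if strand was not used in counting), gave 1816, 2270 and 2444 normalized counts in DMSO and 3440, 2936 and 3433 in YK, and rose by 0.59 on the log2 scale (SE 0.10, limma adjusted p = 0.00741). NEAT1, a paraspeckle RNA, rose from 561 ± 24.9 to 753 ± 47.1 (SD, n = 3 each), at 0.42 (limma adjusted p = 0.0119). MALAT1, a nuclear speckle RNA, rose from 2275 ± 156 to 2940 ± 186 (SD, n = 3 each), at 0.37 (limma adjusted p = 0.0122). Counts were per gene, so isoforms of these RNAs were not told apart. CRNDE, named after its values were seen, fell from 1108 ± 74.8 to 908 ± 14.8 (-0.29, limma adjusted p = 0.0455), and was the gene not called in edgeR (adjusted p = 0.0512). In limma its adjusted p was 0.0515 under TMM scaling and 0.0840 after quantile normalization. Leaving out any YK library brought the adjusted p in limma to between 0.0733 and 0.107 for NEAT1, 0.0619 and 0.112 for MALAT1, 0.0453 and 0.0912 for KCNQ1OT1, and 0.173 and 0.231 for CRNDE, which was at 0.0804 without DMSO replicate 3. With eBayes without trend none of the 4 was called in limma. MEG3, the highest of the list, had overlapping groups (0.15, limma adjusted p = 0.311). The list was written with earlier results of these data known, and its difference from the LINC and SNHG members was not tested.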

How the data were processed

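Polyadenylated RNA of Rh30 cells was sequenced as directional paired-end libraries in 3 DMSO and 3 YK samples. According to the study's methods and the submitters' processing notes, the authors used BBDuk for trimming, STAR 2.7.9a for alignment to hg38 and counts per gene, and DESeq2 1.44.0. The values deposited by the authors are a normalized signal, that is, counts divided by a factor of each library. In each library all values (100%, tolerance 1e-06) were whole multiples of the smallest value above 0, which gave back the reads. The table had 35269 rows. The 1 row without a gene name held at most 6 reads in a library and was left out. No per-sample column was left unused (0), and no column held comparisons by the authors.

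The groups were compared in R 4.3.3 by limma 3.58.1 (lmFit, eBayes with trend) on log2(normalized count + 1), two-sided, over 13930 genes whose mean was at least 10, with Benjamini-Hochberg adjustment at 0.05 over all of them. Fold changes of low genes are understated on this scale. Groups were taken from the sample titles. Replicate numbers were treated as names only, and no block was used. Alternatives were pseudocounts of 0.1 and 10, no filter, a mean of at least 50, a replicate block, quantile and TMM scaling, each library left out, eBayes without trend, and tests of the recovered reads with edgeR 4.0.16 and DESeq2 1.42.0. The limma code was tested on simulated data. Positions, overlaps, neighbours and hosted small RNAs were taken from GENCODE 44 by symbol, with 185 members matched and 11 not, and promoter windows and microRNAs from RefSeq.

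The members, gene lists and tests were chosen with earlier results of these data known. Named members were those called, the 6 SNHG and 6 LINC members with the highest means, the 4 largest rises and 4 largest falls at means of at least 100, and the 2 rows on each side of the limit of membership. In each list the gene with the highest mean and up to 3 called genes were named, as was the coding neighbour of each called LINC member. Rows named for their microRNAs, promoter letters or neighbours, and the other SNHG genes, were added after their values were seen.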

Additional observations from a re-analysis of the deposited data

How the results depend on the processing

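The number of called members, 3 with all 6 libraries, was 0 with eBayes without trend, where 33 of all 13930 genes were called, and between 0 and 14 with 1 library left out, 14 without DMSO replicate 1, 6 without DMSO replicate 2 and 0 without YK replicate 1, 2 or 3. The other alternatives gave 2 or 3. The median log2 fold change of the LINC members, 0.13, was 0.073 for means of at least 50, 0.095 with a pseudocount of 10 and 0.016 after quantile normalization, and the SNHG median lay between -0.055 and 0.052 with 1 library left out. The 5 genes called in the pathway lists together became 0 with eBayes without trend, 3 after quantile normalization, 3 with a replicate block and between 0 and 11 with 1 library left out. Same-numbered libraries of the 2 groups did not deviate together (correlations of -0.10, -0.03 and -0.03). With 3 libraries a group this cannot show whether samples were paired, which the labels do not say. The replicate block gave 2 called members, without SNHG3, and 180 genes in all, without EXOSC9 and CRNDE (limma adjusted p = 0.0976 and 0.109). Signs turned only for changes near 0 or in the lowest band. SNHG17 was at 0.0074 and EIF4A3 at 0.0051 after quantile normalization, LINC02613 at 0.010 in edgeR, and EEF2 at 0.0033 in DESeq2, 0.0051 under TMM scaling, 0.0074 in edgeR and 0.039 after quantile normalization. With 1 library left out the log2 fold change ran from -0.033 to 0.093 for SNHG29, -0.113 to 0.038 for SNHG17, -0.082 to 0.036 for LINC00626, -0.319 to 0.084 for LINC00240, -0.302 to 0.251 for LINC02613, -0.051 to 0.030 for EEF2, -0.017 to 0.024 for NOLC1 and -0.122 to 0.037 for MTREX. Among changes that kept their sign without passing the threshold, values moved by over 1.5 times for SNHG16 (-0.195 to -0.081), SNHG1 (-0.138 to -0.055), SNHG12 (-0.278 to -0.120), SNHG5 (0.242 to 0.556), SNHG7 (0.072 to 0.391), LINC00205 (0.039 to 0.202), LINC03009 (0.197 to 0.568), LINC00545 (-0.364 to -0.130) and MEG3 (0.090 to 0.224). Of these, SNHG5 and SNHG12 passed it without DMSO replicate 1 and SNHG7 without DMSO replicate 2. The causes were not tested. With 3 libraries a group and as few as 1 read of a member in a library, small changes of low members were not detectable.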
